A study of Bos taurus with 16 samples.

Results

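The fatty acid oxidation and uncoupling genes described here were 10 genes linked to the uptake, storage, transport or burning of fatty acids or to uncoupling. The 10 were FABP3, CPT1B, CPT2, ACADVL, HADHA, HADHB, PLIN5, ANGPTL4, UCP2 and UCP3. They were selected by symbol through their NCBI gene IDs, and all 10 were found among the 34109 genes listed. The study asked how overfeeding of pregnant Hanwoo cows (Bos taurus) affects gene expression in the muscle of the newborn calf. Control cows received 100% of their nutritional requirements and treated cows 150% in the middle and late part of pregnancy, with 4 cows and 1 calf of each cow per diet. RNA of the round muscle (hindlimb) and the sirloin muscle was sequenced from each of the 8 male calves, which gave 16 libraries. Both groups of calves were of the same breed, were sampled soon after birth without colostrum, and differed by the diet of the dam alone as far as the labels state. Replicates are separate calves, numbered 1 to 4 in each diet, and the same number within a diet was taken to mark both muscles of a calf.

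Muscle burns fatty acids in its mitochondria. FABP3 carries fatty acids through the cytosol, CPT1B and CPT2 pass long-chain fatty acids over the mitochondrial membranes as carnitine esters, and ACADVL and the trifunctional protein made of HADHA and HADHB shorten them by β-oxidation. PLIN5 coats lipid droplets that lie next to mitochondria, ANGPTL4 inhibits lipoprotein lipase, and UCP2 and UCP3 are carriers of the inner mitochondrial membrane that are known to rise when fatty acids are plentiful, as after birth or in fasting.

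Each library held between 44473011 and 72446933 counts. The summed level of 6 skeletal muscle markers was 38760 to 73970 TPM in every library. Of 6 heart muscle markers, 3 (NPPA, NPPB and MYBPC3) were at 0 in all libraries. The others were above 0 in every library, and the list summed to 70.57 to 566 TPM. Most of each sum was MYH6, at 63.45 to 561.5 TPM. Some libraries stood apart from their groups. In the sirloin library of treated replicate 4 the 7 adipocyte markers summed to 3778 TPM, against 1.24 to 15.8 TPM in the other libraries, and UCP1, the uncoupling protein of brown fat, was at 1098 TPM. In the round library of treated replicate 2 the 8 slow fibre markers summed to 83860 TPM, against 15510 to 40180 TPM elsewhere, and the 8 fast fibre markers to 28090 TPM, the lowest sum of the 16 libraries. The 8 immune cell markers were highest in the sirloin library of the same calf, at 34.3 TPM. That sirloin library also had the lowest sum of 10 mitochondrial content genes, 2872 TPM against 4028 to 6333 TPM in the others. The 5 fibroblast markers were highest in the round library of control replicate 2, at 1471 TPM. In bulk RNA, fewer cells of a type and less RNA per cell cannot be told apart.

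**Figure D1:**
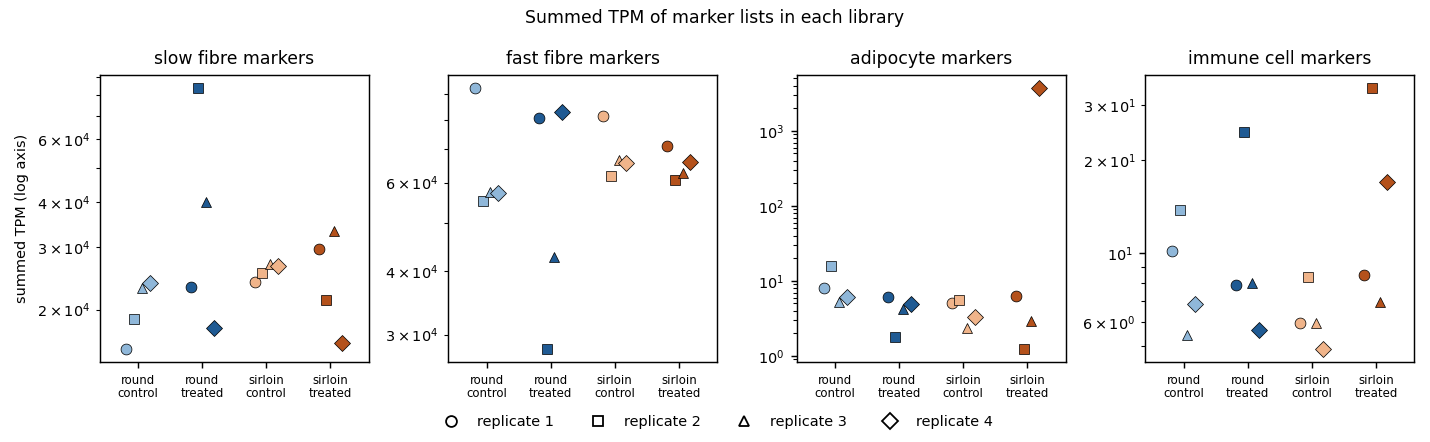
Summed TPM (log axes) of 4 marker lists in each library, by muscle and diet, with one symbol per calf number. One treated sirloin library holds 3778 TPM of adipocyte markers, and one treated round library holds 83860 TPM of slow fibre markers with 28090 TPM of fast fibre markers.

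All 10 genes were expressed in both muscles. On the TPM scale, which is per transcript length and allows genes to be compared, FABP3 (495 ± 216, SD, n = 16 libraries) and ACADVL (421 ± 102) were the most abundant. HADHA (216 ± 84.8) and HADHB (216 ± 74.7) followed at nearly equal mean levels, and then UCP3 (161 ± 108), CPT1B (113 ± 39.8) and UCP2 (106 ± 46.5). ANGPTL4 (30.2 ± 18.4), PLIN5 (23.5 ± 12.3) and CPT2 (18.3 ± 6.11) formed the lowest group. Most neighbours in this order did not separate beyond their spread. HADHA exceeded HADHB in 8 of 16 libraries, CPT1B exceeded UCP2 in 9 and ANGPTL4 exceeded PLIN5 in 8, whereas ACADVL exceeded HADHA in 16 of 16 and UCP2 exceeded ANGPTL4 in 15. CPT1B, the rate-controlling step of fatty acid entry, thus had a mean TPM well above that of CPT2, the second enzyme of the shuttle.

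The genes differed widely in how much calves of one group varied. The standard deviation within groups of log2 CPM (read counts scaled to library size with TMM factors) was 1.52 for UCP3, larger than that of 99.2% of the 7337 genes with a mean of at least 10 CPM, and 1.00 for ANGPTL4, larger than that of 96.2%. It was 0.78 for FABP3, 0.75 for PLIN5 and 0.72 for UCP2, between 0.50 and 0.53 for CPT1B, CPT2, HADHA and HADHB, and 0.38 for ACADVL, near the median of 0.37 over those genes. The values of the uncoupling genes depended on the round library of treated replicate 2. Without it, a choice made after seeing the data, the standard deviation of UCP3 was 0.79, still larger than that of 92.7% of genes. That of UCP2 was 0.36, larger than that of 49.6% of genes. ANGPTL4 had a standard deviation of 0.80 without the sirloin library of treated replicate 4, larger than that of 93.1% of genes.

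**Figure D2:**
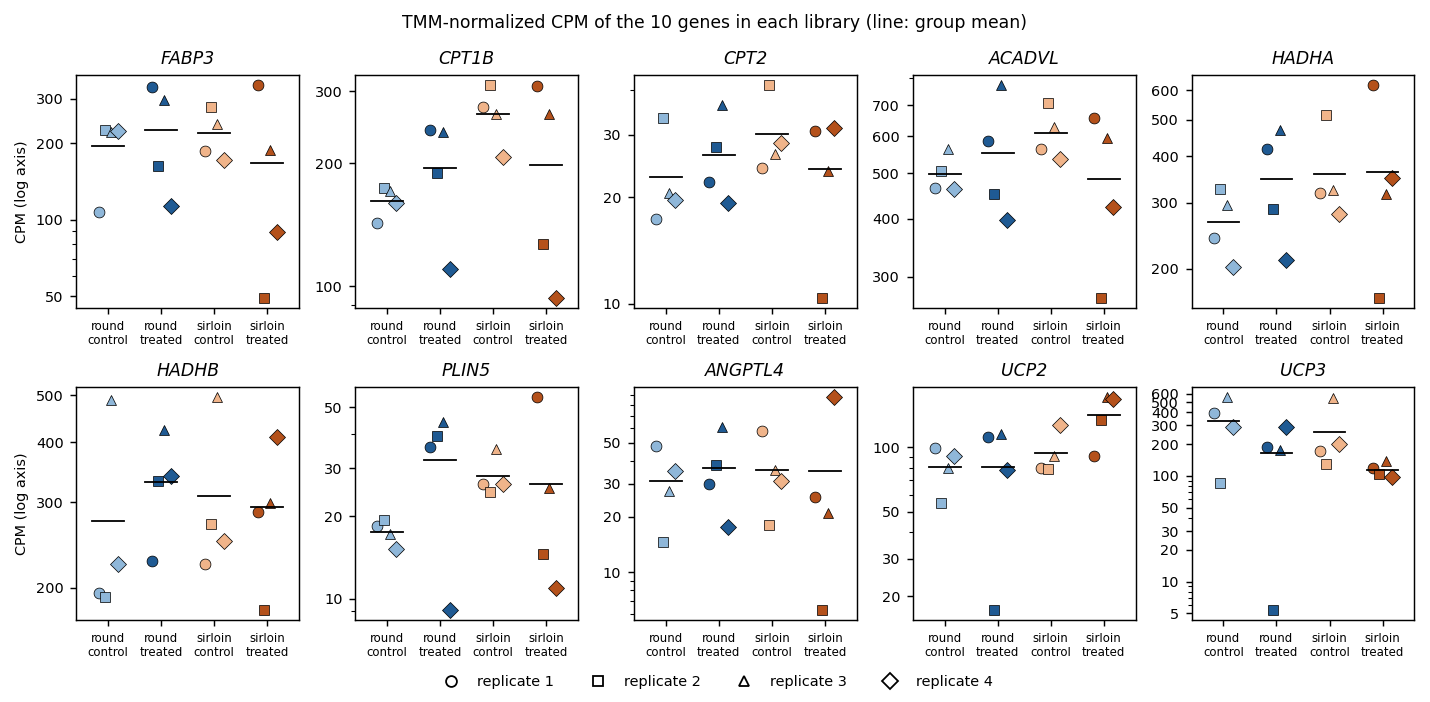
CPM of the 10 genes in each of the 16 libraries (log axes), with a line at each group mean and one symbol per calf number. Control and treated libraries overlap for every gene in both muscles, and UCP3 and UCP2 of one treated round library lie far below the rest, at 5.39 and 17.3 CPM.

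Treated and control calves were first compared within round muscle. None of the 10 genes passed the edgeR quasi-likelihood test with Benjamini-Hochberg adjustment at 0.05, beside 4 of 21677 genes tested (0.0185%), and none passed in DESeq2 or limma-voom. At an unadjusted p of 0.05, 1 of the 10 was below the threshold, beside 4.41% of all genes. For no gene were the 4 treated calves all above or all below the 4 control calves, beside 1.76% of all genes. The log2 fold change was positive for 9 of the 10 genes, with a median of 0.25, and 52.4% of the genes with at least 10 CPM were positive, with a median of 0.02. Without treated replicate 3 only 6 of 10 were positive and the median was 0.05.

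PLIN5 had the smallest p in round muscle. Its CPM, in the order of replicates 1 to 4 used throughout, was 18.5, 19.3, 17.2 and 15.2 in the control calves and 35.9, 39.3, 44.4 and 9.11 in the treated calves. Treated replicates 1 to 3 were above every control calf and treated replicate 4 was below all of them. The fold change was 1.86 (95% interval 1.03 to 3.37), a log2 fold change of 0.90 (SE 0.39, adjusted p = 0.864 in edgeR), and it ranged from 0.68 to 1.18 when each calf was left out in turn.

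The enzymes of the pathway had smaller log2 fold changes. CPT1B was at 143, 174, 171.5 and 160.2 CPM in control and 241, 189, 238 and 110.1 CPM in treated round muscle. The treated calves again held both the 3 highest values and the lowest one, and the log2 fold change was 0.29 (SE 0.27). The log2 fold changes of CPT2 (0.23, SE 0.28), ACADVL (0.17, SE 0.26), HADHA (0.41, SE 0.29) and HADHB (0.29, SE 0.34) were positive too, each with a 95% interval that held 0. The log2 fold change was 0.24 for FABP3 (SE 0.37) and 0.25 for ANGPTL4 (SE 0.41). In 2 of the 4 treated calves, replicates 1 and 3, FABP3 reached 333 and 296 CPM, above all control calves (108, 227, 221 and 223 CPM).

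UCP3 was the single gene of the 10 with a negative log2 fold change in round muscle. It was at 389.6, 86.2, 553 and 290.1 CPM in the control calves and at 186, 5.39, 177 and 288 CPM in the treated calves. The treated calves were all below the control median of 339.9 CPM, but control replicate 2 was below 3 of them. The log2 fold change was -0.98 (SE 0.81, adjusted p = 0.892 in edgeR), and it was -0.60 without treated replicate 2. UCP2 had a log2 fold change near 0 in round muscle, with control values of 98.9, 55.05, 79.7 and 90.8 CPM and treated values of 111, 17.3, 116 and 78.5 CPM (log2 fold change 0.02, SE 0.46, 95% interval -0.98 to 1.02). Treated replicate 2, the round library with the high slow fibre sum, was the lowest of the 16 libraries for both uncoupling genes. Whether its fibre markers bear on these values was not tested.

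The second comparison set treated against control calves within sirloin muscle. Again none of the 10 genes passed the adjusted edgeR test, beside 2 of 21776 genes (0.00918%), and none passed in DESeq2 or limma-voom. At an unadjusted p of 0.05, 2 of the 10 were below the threshold, UCP3 and UCP2, beside 3.91% of all genes. No gene had diet groups that did not overlap, beside 1.68% of all genes. Here 8 of the 10 log2 fold changes were negative, with a median of -0.21, while 46.6% of the genes with at least 10 CPM were positive, with a median of -0.02. Without treated replicate 2 the split was 5 positive of 10 with a median of 0.01.

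UCP3 was at 173, 131, 544 and 202 CPM in control sirloin and at 118, 104, 138 and 97.2 CPM in treated sirloin. Treated replicates 1, 2 and 4 were below every control calf, and treated replicate 3 was above control replicate 2 alone. The treated level was 0.434 times the control level (95% interval 0.233 to 0.807), a log2 fold change of -1.20 (SE 0.41, adjusted p = 0.876 in edgeR). It was -0.56 without control replicate 3, the calf with the highest UCP3 in both muscles, and -1.13 without treated replicate 4.

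UCP2 had a log2 fold change of the opposite sign. It was at 79.8, 79.2, 91.1 and 127 CPM in control sirloin and at 91.5, 134, 171 and 169 CPM in treated sirloin. Treated replicates 2, 3 and 4 were above every control calf, and treated replicate 1 was above all control calves but replicate 4. The fold change was 1.497 (95% interval 1.02 to 2.19), a log2 fold change of 0.58 (SE 0.25, adjusted p = 0.876 in edgeR), with a range of 0.47 to 0.76 over the calves left out. The 8 immune cell markers, whose cells are known to express UCP2, summed to 8.51, 34.3, 6.93 and 17.0 TPM in treated and 5.97, 8.38, 5.97 and 4.91 TPM in control sirloin, and their part in the UCP2 values was not tested.

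The log2 fold changes of the shuttle and β-oxidation genes in sirloin muscle were near or below 0. CPT1B was at 275, 310.5, 264 and 207 CPM in the control calves and at 309, 127, 264 and 93.8 CPM in the treated calves. Treated replicates 2 and 4 were below every control calf and the other treated calves lay within the control range, for a log2 fold change of -0.41 (SE 0.36). FABP3 was at 186, 279, 239 and 172 CPM in control and at 339.5, 49.3, 189 and 89.3 CPM in treated sirloin (log2 fold change -0.39, SE 0.49). Treated replicates 2 and 4 were again below every control calf, but treated replicate 1 was above all of them. The log2 fold change was -0.33 for CPT2 (SE 0.33) and for ACADVL (SE 0.27), 0.01 for HADHA (SE 0.36) and -0.08 for HADHB (SE 0.31). Treated replicate 2 had the lowest value of the 16 libraries for FABP3, CPT2, ACADVL, HADHA, HADHB and ANGPTL4 in its sirloin muscle. The summed mitochondrial content genes were lowest in the same library, at 2872 TPM, and their part in these values was not tested.

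PLIN5 and ANGPTL4 had log2 fold changes near 0 in sirloin. PLIN5 was at 26.2, 24.6, 35.1 and 26.3 CPM in the control group and at 54.3, 14.6, 25.5 and 10.96 CPM in treated calves, so that the treated values lay on both sides of the control range (log2 fold change -0.09, SE 0.43). ANGPTL4 was at 57.9, 17.95, 35.4 and 31.0 CPM in the control group and at 25.4, 6.28, 20.9 and 87.6 CPM in treated calves. Its highest value of the 16 libraries was that of treated replicate 4, the library with the adipocyte markers, in which ADIPOQ was at 678 TPM, FABP4 at 2825 TPM and PLIN1 at 160.0 TPM. The log2 fold change of ANGPTL4 was -0.04 (SE 0.63) with this library and -1.01 without it, and the part of adipocyte RNA in it was not tested.

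**Figure D3:**
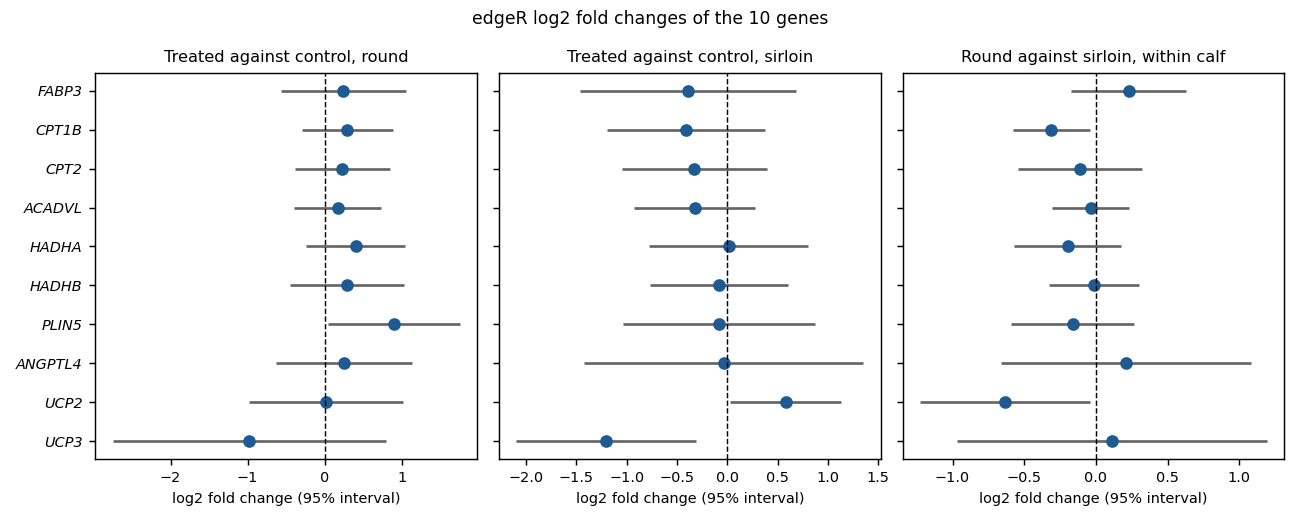
Log2 fold changes of the 10 genes with 95% intervals from edgeR, for treated against control in round, treated against control in sirloin, and round against sirloin within calf. The intervals that leave out 0 are those of PLIN5 in round (0.04 to 1.75), UCP2 (0.03 to 1.13) and UCP3 (-2.10 to -0.31) in sirloin, and CPT1B (-0.58 to -0.04) and UCP2 (-1.23 to -0.04) between muscles, none of them past the adjusted threshold.

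Whether the diet difference itself differed between the muscles was tested with the calf as a block. None of the 10 genes passed the adjusted edgeR test, beside 1 of 22877 genes (0.00437%), and none passed in DESeq2 or limma-voom. At an unadjusted p of 0.05, 3 of the 10 were below the threshold, beside 3.78% of all genes. They were CPT1B, with a difference of log2 fold changes (round minus sirloin) of 0.77 (SE 0.25), PLIN5 with 1.01 (SE 0.40) and FABP3 with 0.87 (SE 0.37), all with an adjusted p of 1 in edgeR. Their differences were lowest without treated replicate 2, at 0.60, 0.64 and 0.53, and highest without treated replicate 1, at 0.91, 1.33 and 1.11. The difference was positive for 8 of the 10 genes, UCP2 (-0.82, SE 0.54) and UCP3 (-0.33, SE 0.98) being the exceptions, and its median was 0.56 beside 0.02 over the genes with at least 10 CPM, of which 52.1% were positive. The count was 8 or 9 of 10 when each calf was left out, and the median was 0.28 without treated replicate 2, where that of UCP2 was -0.24. Without treated replicates 2 and 4, a choice made after their values were seen, all 10 were positive with a median of 0.42.

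The other enzymes of mitochondrial β-oxidation, listed separately from the 10 genes, gave values of the same kind. Of 13 such genes none passed the adjusted edgeR test in any of the 4 comparisons. Their log2 fold changes with diet were positive for 12 of 13 in round (median 0.38) and for 5 of 13 in sirloin (median -0.03), and the difference between muscles was positive for 13 of 13 (median 0.40). At an unadjusted p of 0.05, 4 of the 13 were below the threshold for that difference, the lowest p being that of ECI2, which isomerises double bonds of unsaturated fatty acids. Without treated replicate 2 the difference was positive for 12 of 13 with a median of 0.20.

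The lists of slow fibre, muscle and mitochondrial markers had median differences of the same sign, whereas the fast fibre list did not. The 8 slow fibre markers had positive log2 fold changes for 8 of 8 in round (median 0.98) and 1 of 8 in sirloin (median -0.22), with a difference positive for 8 of 8 (median 1.02). Without treated replicate 2 they were still positive for 8 of 8 in round and in the difference, with medians of 0.38 and 0.50. The 8 fast fibre markers had negative log2 fold changes for 8 of 8 in round (median -0.23) and 8 of 8 in sirloin (median -0.30). Their difference was positive for 2 of 8 (median -0.07). In round, 4 of 8 were positive without treated replicate 2 (median -0.005). The 6 skeletal muscle markers were positive for 5 of 6 in round (median 0.20) and 0 of 6 in sirloin (median -0.45), with a difference positive for 6 of 6 (median 0.54, and 0.42 without treated replicate 2). The 10 genes of mitochondrial content (median 0.01 in round and -0.30 in sirloin) gave a difference with a median of 0.33, and of 0.22 without treated replicate 2. None of these markers passed the adjusted edgeR test for diet or for the difference, and their part in the values of the fatty acid genes was not tested.

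None of the remaining pathway lists held a gene past the adjusted edgeR threshold for diet in either muscle. The median log2 fold change in round and sirloin was 0.07 and -0.02 for 10 genes of fatty acid uptake and activation, 0.49 and 0.25 for 10 lipid droplet and lipolysis genes, 0.17 and 0.09 for 4 other carnitine shuttle genes, 0.33 and -0.10 for 8 fuel switch genes, 0.24 and 0.39 for 5 other uncoupling proteins and nucleotide carriers, and 0.08 and -0.21 for 12 transcriptional regulators. The sirloin median was 0.11 for the lipid droplet genes and -0.25 for the uncoupling proteins and carriers without treated replicate 4, the calf with the adipocyte markers. In its sirloin library DGAT2, which makes triglyceride, was at 157 TPM, against 0.836 to 8.45 TPM in the others, and hormone-sensitive lipase (LIPE) at 147 TPM, against 4.57 to 34.1 TPM. The part of adipocyte RNA in these medians was not tested.

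PPARGC1A, the coactivator of mitochondrial genes, had the smallest p among the regulators. It was at 29.4, 9.97, 132 and 97.8 TPM in control and at 6.21, 16.7, 12.4 and 10.7 TPM in treated round muscle, and at 185, 11.8, 34.3 and 141 TPM in control and 10.6, 8.88, 19.2 and 17.8 TPM in treated sirloin. Control replicate 2 lay within the range of the treated calves in both muscles. The log2 fold change of PPARGC1A was -2.71 (SE 0.67, adjusted p = 0.864 in edgeR) in round and -2.90 (SE 0.72, adjusted p = 0.876 in edgeR) in sirloin. It passed in DESeq2 in both muscles (adjusted p = 0.00753 in round and 0.0127 in sirloin) but not in limma-voom (adjusted p = 0.973 and 0.989), and was the single gene of the pathway and marker lists called for diet in either muscle by any of these tools. In sirloin DESeq2 gave no adjusted p for some listed genes, among them LIPE, DGAT2, UCP1 and PPARG. These counted as not called.

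The nuclear receptors PPARA, PPARD and PPARG bind fatty acids. PPARA had log2 fold changes of 0.05 (SE 0.27) in round and -0.44 (SE 0.25) in sirloin, and PPARD of -0.32 (SE 0.36) and -0.33 (SE 0.56). PPARG, the receptor of adipocytes, had a log2 fold change of 2.64 (SE 1.08, adjusted p = 0.876 in edgeR) in sirloin, with 37.8 TPM in the library of treated replicate 4 and 1.01 to 2.67 TPM in the others, and of -0.31 without that calf. PDK4, the kinase that inhibits pyruvate dehydrogenase when fat is burnt, was between 313 and 5403 TPM over the 16 libraries. Its lowest value in both muscles was in control replicate 2. Its log2 fold change was -0.67 (SE 0.67) in round and -0.29 (SE 0.65) in sirloin.

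Round and sirloin muscle were then compared within calf. None of the 10 genes passed the adjusted edgeR test, beside 109 of 22877 genes (0.476%), and none passed in DESeq2 or limma-voom. At an unadjusted p of 0.05, 2 of the 10 were below the threshold, CPT1B and UCP2, beside 11.2% of all genes. No gene had the same direction in all 8 calves, beside 2.51% of all genes. CPT1B was lower in round than in sirloin in 6 of 8 calves, with a log2 difference of -0.31 (SE 0.12, adjusted p = 0.356 in edgeR). It was lower in round in all 4 control calves (-0.95, -0.84, -0.62 and -0.37 on the log2 CPM scale), but in the treated calves the differences were -0.36, 0.57, -0.15 and 0.23. UCP2 was lower in round in 6 of 8 calves too, with a log2 difference of -0.63 (SE 0.27, adjusted p = 0.405 in edgeR), which was -0.34 without treated replicate 2.

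The calves fell into different patterns between the muscles. In all 4 control calves CPT1B, CPT2, ACADVL, HADHA, HADHB and PLIN5 were lower in round than in sirloin, though HADHB by -0.015 alone in control replicate 3. Of the 10 genes, 7 to 10 were lower in round in these calves, with medians between -0.49 and -0.18 on the log2 CPM scale. In the edgeR fit of muscle within calf, 44.3% of the genes with at least 10 CPM were positive, with a median of -0.03. The share over all genes in each calf was not computed. Treated replicates 1 and 4 had 7 of 10 lower in round (medians -0.25 and -0.27). Treated replicates 2 and 3 went the other way, with 8 of 10 genes higher in round and medians of 0.84 and 0.54. For treated replicate 2 the sirloin library held the lowest value of the 16 libraries for FABP3, CPT2, ACADVL, HADHA, HADHB and ANGPTL4. The round libraries of treated replicates 2 and 3 had the highest slow fibre sums of the 16 libraries, 83860 and 40180 TPM. Their own sirloin libraries had 21310 and 33190 TPM. The part of the fibre markers in these differences was not tested. Treated replicate 2 also had the widest split, from 2.59 for ANGPTL4 to -4.26 for UCP3.

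**Figure D4:**
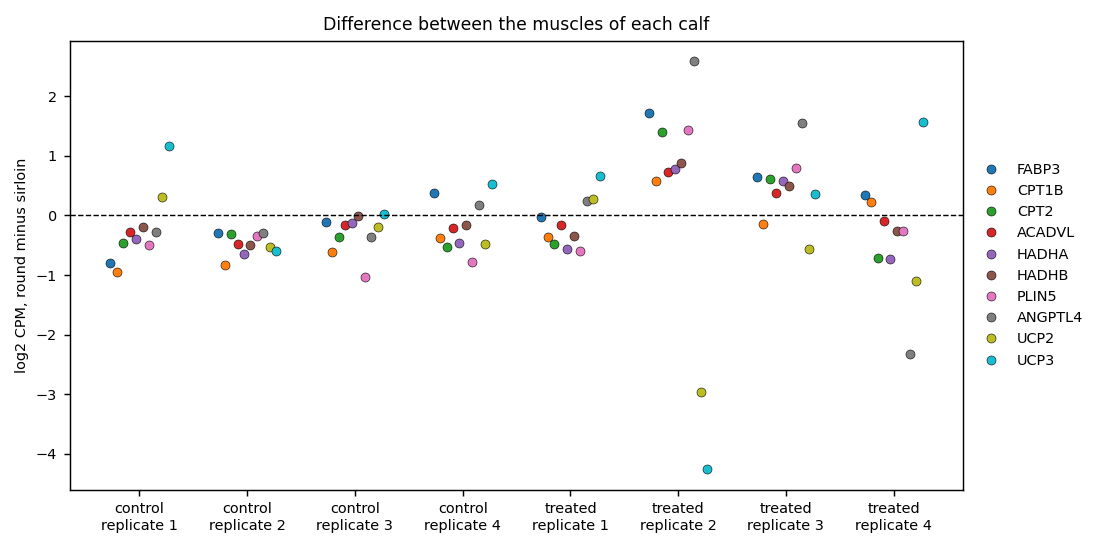
Difference of log2 CPM between round and sirloin muscle of each calf, one point per gene, with a dashed line at 0. Most genes lie below 0 in the control calves, treated replicates 2 and 3 have 8 of 10 genes above 0, and UCP3 and UCP2 of treated replicate 2 lie at -4.26 and -2.95.

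A pair of ratios within each library was examined, since they need no scaling between libraries. UCP2 and UCP3 belong to one family and are close neighbours in the annotation, with only LOC112441550 listed between them. The ratio of UCP3 to UCP2 TPM in sirloin was 1.60, 1.23, 4.30 and 1.15 in the control calves and 0.947, 0.559, 0.594 and 0.414 in the treated calves. Every treated calf was below every control calf. The mean log2 ratio was 1.55 lower in treated calves (two-sided exact permutation test, p = 0.0286, the smallest this design can give), and the adjusted p over the 6 tests of ratios was 0.0857. The difference was between -1.77 and -1.13 when each calf was left out. The separation combines the lower UCP3 and the higher UCP2 values given above, and so adds no independent evidence to them. In round the ratio was 2.86, 1.16, 5.01 and 2.31 in the control group and 1.24, 0.228, 1.12 and 2.64 in the treated group. These groups overlapped, with a mean log2 difference of -1.38 (two-sided exact permutation test, p = 0.171, adjusted p = 0.293). Between the muscles the mean log2 ratio differed by 0.58, round minus sirloin (two-sided exact permutation test, p = 0.195, adjusted p = 0.293).

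HADHA and HADHB encode the α and β subunits of the trifunctional protein and lie side by side in the annotation. Their TPM ratio nevertheless differed by a factor of 3.63 over the libraries. The round ratios of HADHA to HADHB were 1.15, 1.51, 0.535 and 0.822 (control) and 1.66, 0.794, 1.02 and 0.542 (treated). The sirloin ratios were 1.33, 1.68, 0.586 and 1.06 (control) and 1.94, 0.859, 0.970 and 0.743 (treated). The diet groups overlapped in both muscles (mean log2 difference -0.02 in round and -0.05 in sirloin, two-sided exact permutation tests, p = 0.943 in each). The ratio was lower in round than in sirloin in 7 of 8 calves, by 0.20 on the log2 scale (two-sided exact permutation test, p = 0.0156, adjusted p = 0.0857).

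The ratio of HADHA to HADHB was alike in both muscles of a calf. The muscles of a calf differed by at most 1.37-fold, and the ratios in round and sirloin were correlated over the 8 calves, with Pearson's r of 0.964 and Spearman's rho of 0.976 (exact permutation test, p = 0.000397 and adjusted p = 0.000794 for each, over both ratios). This correlation was computed after the ratios had been seen, and no background of other gene pairs was set beside it. It was 0.933 without the 2 calves farthest from the median (exact permutation test, p = 0.00972), and 0.965 with the diet means removed (p = 0.00174 by permutation). Control replicate 3 had the lowest ratio in sirloin and the lowest in round, with HADHB at 489.9 CPM in round and 495 CPM in sirloin, while treated replicate 1 had the highest in both. The ratio of UCP3 to UCP2 gave a weaker correlation that did not pass the test (Pearson's r 0.586 and Spearman's rho 0.571, exact permutation tests, p = 0.130 and p = 0.151, adjusted p = 0.130 and p = 0.151). Its r was 0.06 without the 2 calves farthest from the median.

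**Figure D5:**
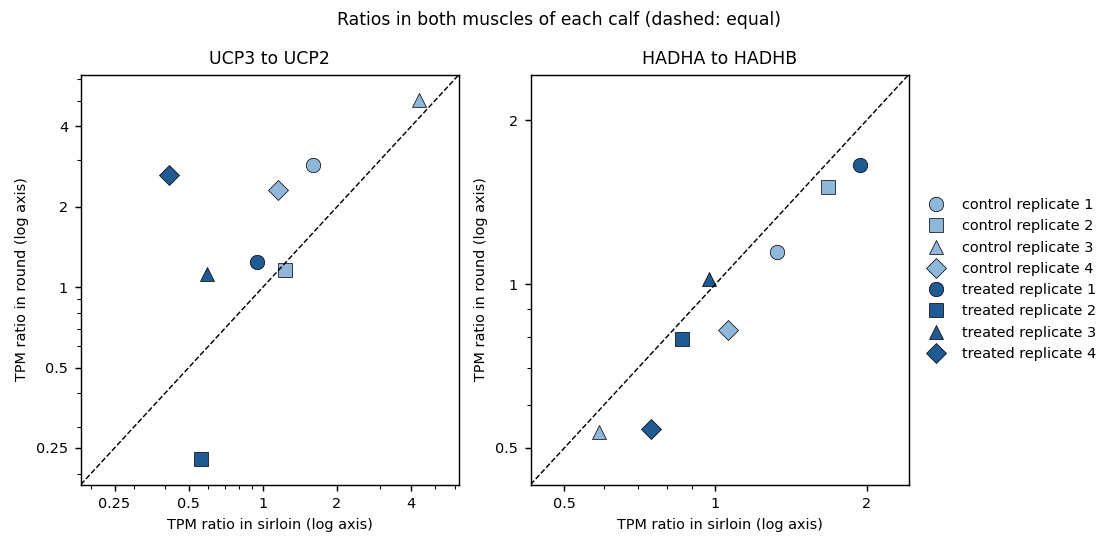
Ratios of UCP3 to UCP2 and of HADHA to HADHB TPM in the round muscle against the sirloin muscle of each of the 8 calves (log axes), with a dashed line of equality. The HADHA to HADHB ratios follow the line (Pearson's r 0.964), and the treated calves lie at 0.947 or less on the sirloin axis for UCP3 to UCP2.

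The level of each gene by itself was less clearly shared by the muscles of a calf. Over the 8 calves Pearson's r between round and sirloin log2 CPM ranged from -0.19 for ANGPTL4 to 0.58 for CPT1B, and none of the 10 passed an adjusted p of 0.05 for r or for Spearman's rho (exact permutation tests). The same calf had the highest value in both muscles for 4 genes. It was control replicate 3 for UCP3 and HADHB, treated replicate 3 for UCP2 and treated replicate 1 for FABP3.

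Across the 16 libraries, after each muscle was centred on its mean, several of the enzymes and carriers varied together. The values describe these libraries, which share calves. Pearson's r was 0.91 between ACADVL and FABP3, 0.87 between CPT1B and FABP3, 0.84 between CPT1B and PLIN5 and 0.80 between CPT2 and HADHA. HADHB stood aside, with r of 0.30 with HADHA, its partner subunit, and 0.41 at most, with ANGPTL4. UCP3 and UCP2 had r of 0.69 but Spearman's rho of 0.26. Without the round library of treated replicate 2 and the sirloin library of treated replicate 4, left out after seeing the data, r was 0.03 for UCP3 with UCP2 and 0.31 for HADHB with HADHA, while HADHB reached 0.59 with UCP3.

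Among all 7337 genes with at least 10 CPM, the genes most like each of the 10 were partly of the same pathway. HADHA was nearest to SLC25A20, the carnitine-acylcarnitine carrier of the inner membrane (r 0.94), and to ACADL, the long-chain acyl-CoA dehydrogenase (r 0.93), and CPT2 had ACADL as its second nearest (r 0.84). ANGPTL4 was nearest to CD36, which takes up fatty acids at the cell surface (r 0.84). UCP3 was nearest to TNNT3, the troponin T of fast fibres (r 0.88, and 0.67 without the same 2 libraries). The nearest genes were TRIM41 for CPT1B (r 0.91), CACNG6 for PLIN5 (r 0.90), RER1 for UCP2 (r 0.85), CNOT8 for HADHB (r 0.82) and MMD for CPT2 (r 0.85).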

How the data were processed

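Per the labels and the study's methods, RNA was sequenced from round and sirloin muscle of 8 calves. The authors deposited whole-number read counts without normalization and normalized values, whose sums fit TPM, the unit used for them here. They sum to 1000000 in both libraries of control replicate 2 and to between 999756 and 999858 in the others. The sources differ on the upstream steps. The submitters' processing notes name FastQC, Trimmomatic, STAR, featureCounts and DESeq2 with the build ARS-UCD 1.2, and the labels name poly(A) selection, whereas the paper names removal of rRNA and globin RNA, HISAT2, Bowtie2 and StringTie. Whether counting used strand is not given in the sources used here, so reads of ACADVL and of MIR324 within it, and of ANGPTL4 and the overlapping LOC132345705, may be mixed. The authors' tables of fold changes and p-values were not used.

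Gene IDs were matched to symbols with the RefSeq annotation of ARS-UCD 2.0 (30762 of 34109 IDs, 90.2%), which served for names and neighbours only. Counts were fitted with edgeR 4.0.16 in R 4.3.3 (TMM factors, glmQLFit, glmQLFTest, two-sided, Benjamini-Hochberg adjustment over every gene that had 1 count or more in the libraries fitted), for diet in each muscle without covariates, and for muscle and for the difference between muscles with calf as a block. Standard errors were derived from the F statistic of each log2 fold change, and intervals are 95%. CPM used TMM factors, and log2 CPM a prior count of 2. Ratios and correlations were tested by exact permutation in Python 3.11.15, with ranks from scipy 1.17.1. The edgeR fits of the 4 comparisons were tested on simulated counts, and the exact tests of ratios on values with known answers. The alternative fits were not run on simulated counts. Libraries of the 2 muscles with the same number within a diet correlated by 0.311 to 0.765 after removal of the group means (12315 genes with at least 1 CPM). The highest value with another calf was 0.0944 to 0.456, a lower range that overlaps the first. The numbers were taken to pair the muscles of a calf. Across diets the same number gave -0.28 to 0.29, so they do not pair calves of different diets.

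The 10 genes, the lists and the tests were chosen with earlier results of these data known. All 10 genes are named. Of the other lists, the names are those of genes past the adjusted edgeR threshold (none in any of the 4 comparisons) and PPARGC1A, PPARA, PPARD and PDK4. For each of the 10, up to 3 genes of the most similar pattern are named too. ECI2, UCP1, PPARG, DGAT2, LIPE and the markers ADIPOQ, FABP4, PLIN1 and MYH6 were named after their values were seen. Alternatives were DESeq2 1.42.0, limma-voom (limma 3.58.1), RLE and upper-quartile factors, filterByExpr, a single fit of both muscles, replicate blocks, limma on log2(TPM + 1), an adjusted p of 0.2 and leaving out each calf. Sequences of the genes were not analysed here.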

Additional observations from a re-analysis of the deposited data

Results flagged for a closer look

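Dixon's test at the 95% level was applied to the CPM of the 10 genes and to both ratios in each group of 4 calves, 48 groups in all. It marked 4 of them, and chance marks about 1 in 20 groups. HADHB in the round muscle of control replicate 3 was at 489.9 CPM, against 191 to 223 CPM in the other control calves, and the sirloin muscle of that calf was high too, at 495 CPM. PLIN5 in the sirloin muscle of the same calf was at 35.1 CPM, against 24.6 to 26.3 CPM. The ratio of UCP3 to UCP2 in the sirloin muscle of that calf was 4.30, against 1.15 to 1.60. FABP3 in the round muscle of control replicate 1 was at 108 CPM, against 221 to 227 CPM in the other control calves. So 3 of the 4 values came from control replicate 3.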

How the results depend on the processing

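None of the 10 genes passed an adjusted p of 0.05 in any comparison under any alternative run. The number of genes called for diet in round was 4, and 45 with DESeq2, 1 with limma-voom, 0 with limma on log2(TPM + 1) and 0 to 3 over the calves left out. In sirloin it was 2, and 13 with DESeq2, 0 with limma-voom, 0 with limma on log2(TPM + 1) and 0 to 1 over the calves left out. Between muscles it was 109, and 866 with DESeq2, 28 with limma on log2(TPM + 1), 35 to 322 over the calves left out, the highest without treated replicate 4, and 210 without treated replicates 2 and 4 (chosen after seeing the data). For the difference of the diet effect between muscles it was 1, and 9 with DESeq2, 0 with limma on log2(TPM + 1), 0 to 2 over the calves left out and 0 without treated replicates 2 and 4. The causes were not tested.

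With the replicate number as a block across diets, which shares only a number, the calls for diet were 2 in round and 0 in sirloin, and the log2 fold change of UCP2 in round was -0.25 and that of HADHA in sirloin -0.075. With no replicate block for the calf, the calls were 14 between muscles and 0 for the difference, ANGPTL4 between muscles was -0.062 and UCP3 in the difference 0.19.

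Log2 fold changes turned sign in 49 recomputed values of the 10 genes, and 591 kept theirs. UCP2 in round was -0.007 with DESeq2, with RLE factors and with all 16 libraries in one fit, -0.019 with filterByExpr, -0.26 with limma-voom and -0.17 with limma on log2(TPM + 1). In sirloin HADHA was -0.10 with limma-voom and HADHB 0.13 with limma on log2(TPM + 1), and between muscles UCP3 was -0.12 with limma on log2(TPM + 1). Without treated replicates 2 and 4 the difference between muscles was 0.075 for UCP2 and 0.225 for UCP3. Over the calves left out, the range in round was -0.22 to 0.33 for UCP2, -0.13 to 0.53 for ANGPTL4, -0.019 to 0.44 for FABP3 and -0.055 to 0.27 for ACADVL. In sirloin it was -0.38 to 0.25 for HADHA, -0.27 to 0.24 for HADHB, -1.01 to 0.31 for ANGPTL4 and -0.725 to 0.175 for PLIN5. Between muscles it was -0.12 to 0.028 for ACADVL, -0.13 to 0.078 for HADHB, -0.31 to 0.038 for CPT2, -0.25 to 0.57 for UCP3 and -0.15 to 0.62 for ANGPTL4, and for the difference -1.05 to 0.58 for UCP3. The mean log2 ratio of HADHA to HADHB, treated minus control, ranged from -0.30 to 0.24 in round and from -0.35 to 0.16 in sirloin. The 95% interval for diet in round ran from 0.756-fold to 1.67-fold for ACADVL and from 0.148-fold to 1.73-fold for UCP3. None of the 10 genes passed an adjusted p of 0.2 in edgeR with all calves, and between muscles CPT1B (0.145) and UCP2 (0.156) did in DESeq2.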
